A study of Mus musculus with 9 samples.

Results

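The IFIT and OAS interferon effectors are 10 antiviral genes, *Ifit1*, *Ifit2*, *Ifit3*, *Oas1a*, *Oas2*, *Oas3*, *Oasl1*, *Oasl2*, *Isg15* and *Rsad2*. They were taken by symbol with no filter on their values, but the list was chosen with earlier results of these data known. All 10 were found among the 12204 genes of a normalised expression table. The table covered 9 libraries of C57/Bl6J mouse bone marrow-derived macrophages, which are macrophages grown from marrow, here for 6 days in medium with 20% L929 cell supernatant. In the LPS + BMS group (3 libraries), cells received 50 µM of the ATP-citrate lyase inhibitor BMS303141 for 1 h and then lipopolysaccharide (LPS, a Toll-like receptor 4 ligand) at 10 ng/ml for 4 h. The LPS group (3 libraries) received the same LPS without the inhibitor, and the UT group (3 libraries) was untreated. Whether LPS or UT cells received a vehicle is not given in the labels. Effects of the inhibitor and of its solvent therefore cannot be told apart here. No group had the inhibitor without LPS, so LPS + BMS was set against LPS, and the inhibitor's own effect on resting cells was not analysed here. The labels do not say whether replicates are separate mice or cultures, and p-values therefore describe the spread between these 3 libraries per group, part of which may be technical.

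In macrophages, LPS signals through TLR4 and the adaptor TRIF to the transcription factor IRF3, which switches on interferon beta. Secreted interferon binds its receptor, IFNAR, and through the kinases JAK1 and TYK2 assembles a complex with STAT2 and IRF9 that binds the interferon-stimulated response element (ISRE) of effector genes. IFIT proteins bind RNA and restrict translation of foreign messages. OAS enzymes sense double-stranded RNA and make oligoadenylates, ISG15 is a ubiquitin-like protein attached to other proteins, and *Rsad2* encodes viperin, which makes a chain-terminating nucleotide.

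Promoter sequences were examined because such effectors are known to be induced through the ISRE. RefSeq windows (build GRCm38.p6) of 300 bases, with 250 before and 50 after each annotated start, were searched on both strands for the ISRE core GAAANNGAAA (TTTCNNTTTC on the other strand), and overlapping matches were counted separately. Of the 9 genes with an entry, 6 held a match (66.7%), against 3.99% of all 27025 RefSeq genes and 3.44% of all 32851 windows. *Ifit1*, *Ifit3* and *Oas1a* held 2 matches each, *Isg15* held 3, and *Oas3* and *Rsad2* held 1 each. The 200 bases before the start are shown for these 6 genes, with the matches in capitals, and for *Oasl1*, which had the largest LPS difference below and no match in its window. The *Ifit1* stretch is chr19:34640689-34640888 (plus strand) and the *Ifit3* stretch chr19:34583329-34583528 (plus strand). *Oas1a* and *Oas3* are shown at chr5:120907526-120907725 and chr5:120777660-120777859, both minus strand, and *Isg15* at chr4:156200819-156201018 (minus strand). *Rsad2* is shown at chr12:26456453-26456652 (minus strand) and *Oasl1* at chr5:114923040-114923239 (plus strand).
Ifit1: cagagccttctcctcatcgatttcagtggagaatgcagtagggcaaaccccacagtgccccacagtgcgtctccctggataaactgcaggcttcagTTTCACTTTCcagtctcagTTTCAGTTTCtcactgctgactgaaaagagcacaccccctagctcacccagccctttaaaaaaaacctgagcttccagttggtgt
Ifit3: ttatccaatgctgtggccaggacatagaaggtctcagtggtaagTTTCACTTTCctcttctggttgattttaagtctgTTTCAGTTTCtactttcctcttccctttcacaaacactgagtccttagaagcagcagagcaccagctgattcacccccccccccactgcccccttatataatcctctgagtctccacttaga
Oas1a: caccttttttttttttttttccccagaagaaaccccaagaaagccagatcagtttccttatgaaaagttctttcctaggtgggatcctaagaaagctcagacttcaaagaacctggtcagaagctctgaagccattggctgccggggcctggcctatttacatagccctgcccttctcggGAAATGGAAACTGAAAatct
Oas3: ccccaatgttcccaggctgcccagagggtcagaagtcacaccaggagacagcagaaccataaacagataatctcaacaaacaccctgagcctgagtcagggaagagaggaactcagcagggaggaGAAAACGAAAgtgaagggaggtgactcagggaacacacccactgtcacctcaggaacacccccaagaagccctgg
Isg15: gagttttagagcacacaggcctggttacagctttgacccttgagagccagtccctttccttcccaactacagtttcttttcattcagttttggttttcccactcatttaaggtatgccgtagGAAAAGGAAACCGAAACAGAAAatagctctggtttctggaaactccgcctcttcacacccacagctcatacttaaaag
Rsad2: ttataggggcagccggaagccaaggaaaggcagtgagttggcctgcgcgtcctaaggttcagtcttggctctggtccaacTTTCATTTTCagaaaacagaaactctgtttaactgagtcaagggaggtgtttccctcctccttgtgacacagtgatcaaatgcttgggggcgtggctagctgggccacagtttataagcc
Oasl1: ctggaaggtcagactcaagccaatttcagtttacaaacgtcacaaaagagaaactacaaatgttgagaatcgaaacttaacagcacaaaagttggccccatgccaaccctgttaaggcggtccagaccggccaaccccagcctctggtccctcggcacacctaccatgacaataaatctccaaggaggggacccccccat

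Counted from the start, the *Isg15* matches began at positions -78, -72 and -66 and overlapped one another, and the *Oas1a* matches began at -20 and -14, close to the start itself. The *Ifit1* matches lay at -104 and -85 and the *Ifit3* matches at -156 and -122, all 4 on the strand opposite the gene. *Rsad2* carried its match at -120 on the opposite strand, and *Oas3* at -75 on its own strand. The windows of *Oasl1* and *Oasl2* and both windows of *Ifit2* held none of these letters, which says nothing of binding elsewhere. A match is a description of the sequence and was not tied to any value below.

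**Figure D1:**
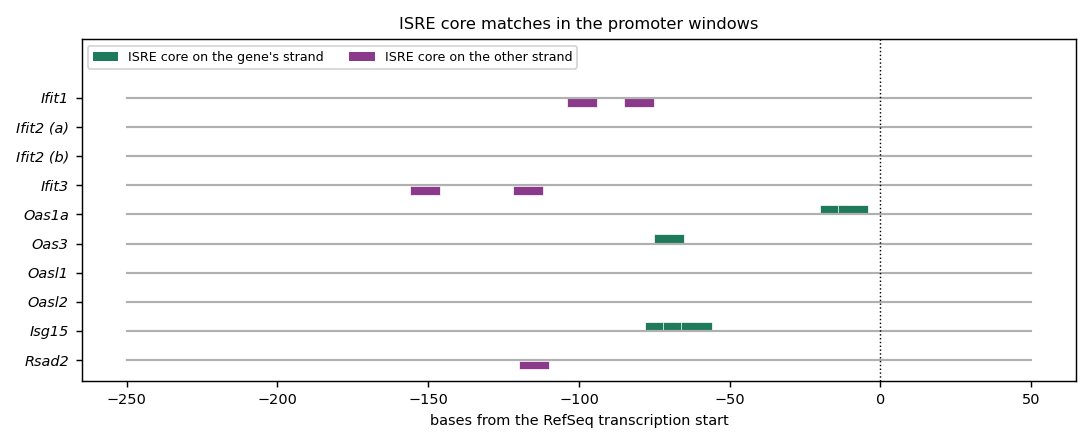
Matches to the ISRE core in the RefSeq promoter windows of 9 of the 10 genes, with the distance in bases from the annotated transcription start on the x axis and a line for each window. Green blocks lie on the gene's strand and purple blocks on the other strand, and *Isg15* shows the cluster of 3 overlapping matches.

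The genes lie on 4 chromosomes of GRCm38 (GENCODE M21 annotation). *Ifit2* (chr19:34550694-34576419), *Ifit3* (chr19:34583531-34588731) and *Ifit1* (chr19:34640871-34650009) follow one another on the plus strand of chromosome 19. On chromosome 5, *Oas2* (chr5:120730333-120749853), *Oas3* (chr5:120753098-120777661) and *Oas1a* (chr5:120896256-120907521) are on the minus strand, and *Oasl2* (chr5:114896936-114912234) and *Oasl1* (chr5:114923240-114937915) on the plus strand. *Isg15* (chr4:156199424-156200818) and *Rsad2* (chr12:26442746-26456452) are each alone on the minus strand. Since these were 3′-end libraries, the last 400 bases of each transcript were compared with all other transcripts in words of 50 bases. *Oas1a* shared 43.6% of its words with *Oas1g* and *Ifit3* shared 19.1% with *Ifit3b*, so reads of each such pair may be split or dropped. *Oas3* shared 6.27%, with 7 genes elsewhere, *Isg15* 0.855%, and the other 6 genes 0 of 351 words. *Oasl1* overlaps the antisense gene *Gm13822*, and *Oas2* the unlisted opposite-strand gene *Gm43068*, and no source used here says whether counting used the strand.

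The values are log2 CPM (reads of a gene scaled to a common library total), quantile-normalised by the authors, and CPM below is 2 to the power of that value. A 3′-end library gives about 1 read per transcript, so levels of different genes are compared without a length correction. Depth on the listed genes, estimated from the spacing of low values, was 3560000 to 3740000 reads in LPS + BMS, 1830000 to 3190000 in LPS and 3220000 to 5050000 in UT. LPS replicate 1 was the shallowest library and stood apart on the second principal component (-63.1, 9.44% of the variance, with the highest library at 26.0). *Oas3*, the lowest of the 10 genes under LPS, had an estimated 18 to 39, 30 to 35 and 11 to 49 reads in LPS + BMS, LPS and UT libraries. These reads carry counting error, and without molecular identifiers are not independent molecules. All 8 macrophage markers were listed, with summed levels of 4746 to 4830 CPM in LPS + BMS, 3987 to 4866 CPM in LPS and 8007 to 8683 CPM in UT. The markers did not move alike. By limma, 6 of 8 were called lower in LPS than in UT (25.4% of tested genes were), with *Mertk* lowest at -4.14 log2. *Cd14* was called higher (1.80 log2) and *Adgre1* was not called (0.07 log2). In bulk RNA, fewer cells of a type and less RNA per cell cannot be told apart. Conventional dendritic, erythroid and mast cell markers had 0 listed genes, and the listed lymphocyte (1 of 8), plasmacytoid dendritic (1 of 5) and stromal (3 of 5) markers summed to at most 15.3 CPM in any library. The listed plasmacytoid dendritic marker, *Ccr9*, was at low level and was higher in LPS and in LPS + BMS than in UT. It stood at 2.40 to 3.93 CPM in LPS + BMS, 2.78 to 3.54 CPM in LPS and 0.701 to 1.02 CPM in UT. It was 1.95 log2 higher in LPS than in UT (limma adjusted p = 0.00165) and 1.77 higher in LPS + BMS than in UT (0.00318). Between LPS + BMS and LPS it differed by -0.18 (limma adjusted p = 0.878), with overlapping libraries. *Siglech*, *Bcl11a*, *Klk1* and *Cox6a2* of the same list were not listed. Neutrophil markers were represented by *S100a8* and *S100a9* only (2 of 8, with *Ly6g*, *Elane*, *Mpo*, *Camp*, *Ltf* and *Ngp* not listed), with sums of 172 to 263.8 CPM in LPS + BMS, 33.9 to 60.9 CPM in LPS and 7.81 to 29.6 CPM in UT. *S100a8*, which macrophages can also express, was 2.29 higher on the log2 scale in LPS + BMS than in LPS (limma adjusted p = 0.00377). *S100a9* differed by 0.49 in the same comparison and was not called (limma adjusted p = 0.863). In LPS + BMS the mean was 218.7 CPM for *S100a8* and 2.86 CPM for *S100a9*, so the sums there were almost wholly *S100a8*. The part of these markers in the results below was not tested.

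LPS raised all 10 effectors. Together they summed to 1922, 2576 and 2064 CPM in the LPS libraries, against 215, 209.9 and 158 CPM in the UT libraries, or 0.195% to 0.261% of a library under LPS and 0.016% to 0.0218% untreated. The largest differences were those of *Oasl1* (34.2-fold), *Isg15* (25.3-fold), *Rsad2* (23.6-fold) and *Ifit1* (19.6-fold), and the smallest those of *Oas3* (2.02-fold) and *Oas2* (2.04-fold). By limma with Benjamini-Hochberg adjustment over 12196 tested genes, 10 of 10 passed an adjusted p of 0.05 as higher, against 21.5% of all tested genes called higher. In all 10 the lowest LPS library lay above the highest UT library, which 23.7% of tested genes also showed. The median log2 difference of the 10 was 2.66 (1.01 to 5.10), beside -0.06 over all tested genes.

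With the inhibitor present, all 10 means were lower than with LPS alone. The 10 summed to 1264, 1456 and 952.8 CPM in the LPS + BMS libraries, against 1922, 2576 and 2064 CPM in the LPS libraries, with no overlap. *Rsad2* made up 42.8% to 45.6% of the sum in LPS + BMS libraries and 42.7% to 47% in LPS libraries. *Isg15* made up 22.1% to 24.2% and 13.8% to 19.8%, and neither gene passed the adjusted threshold in this comparison. *Ifit2* (2.42-fold), *Ifit3* (2.21-fold), *Oasl1* (2.08-fold) and *Oasl2* (1.93-fold) fell past the adjusted threshold, 4 of 10 against 1.16% of tested genes called lower. In 9 of 10, all but *Isg15*, every LPS + BMS library lay below every LPS library, against 11.2% of tested genes. The median log2 difference was -0.91 (-1.27 to -0.36), beside -0.0043 over all tested genes. These 4 calls rested on LPS + BMS replicate 3: without that library limma called 0 of 10 (6 of 10 at an unadjusted p under 0.05) and the median was -0.79. Without LPS + BMS replicate 1 it called 2 of 10. Calls over all tested genes fell as well, from 258 to 62 without LPS + BMS replicate 3 and to 79 without LPS + BMS replicate 1. Without a mean-variance trend, limma also called 0 of 10, with 8 of 10 at an unadjusted p under 0.05.

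Set against untreated cells, 8 of 10 effectors were still called higher in LPS + BMS (21.5% of tested genes were), all but *Oas2* and *Oas3*, and the same number lay wholly above the UT range (27.2% of tested genes did). Their sums were 1264, 1456 and 952.8 CPM in LPS + BMS and 215, 209.9 and 158 CPM in UT. The median log2 difference from UT was 1.55 (0.20 to 4.30) in LPS + BMS and 2.66 in LPS. Each group enters 2 of the 3 comparisons, so the 3 sets of differences are not independent of each other.

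**Figure D2:**
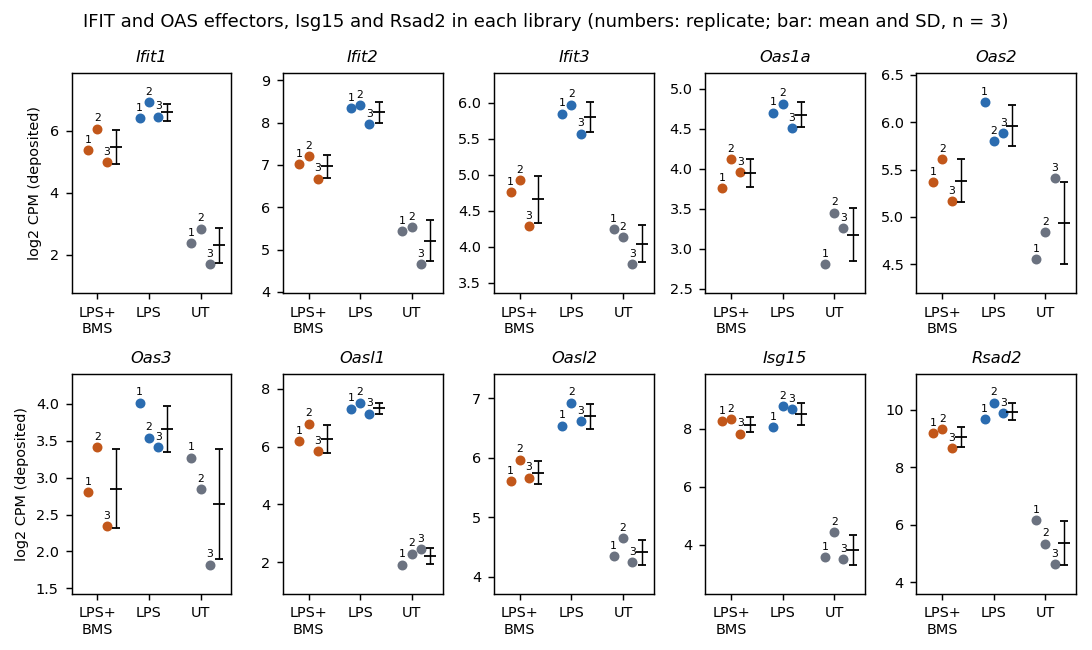
Deposited log2 CPM of each of the 10 effectors in the 9 libraries, with the replicate number beside each point and the mean and SD of 3 libraries as a bar. LPS + BMS points lie between LPS and UT for most genes, and for *Isg15* LPS + BMS and LPS points overlap.

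*Ifit1*, whose protein recognises RNA caps that lack methylation, had 41.7, 67.1 and 31.7 CPM in the LPS + BMS libraries, 84.7, 121 and 87.9 CPM in the LPS libraries and 5.15, 7.18 and 3.24 CPM in the UT libraries. UT was lowest by a wide margin, and the LPS + BMS libraries, although wholly below LPS, were spread over about the same range as the gap to LPS. The LPS libraries were above UT by 4.29 log2 (SE 0.30, limma adjusted p = 7.07e-08). The inhibitor difference of -1.11 log2 (95% interval -1.76 to -0.46) did not pass (limma adjusted p = 0.0811), although it did without LPS + BMS replicate 2 (-1.41, limma adjusted p = 0.0493).

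*Ifit2*, which protects mice against neurotropic viruses, had 129.7, 148 and 102 CPM in the LPS + BMS libraries, 324, 342 and 251 CPM in the LPS libraries and 43.4, 46.5 and 25.1 CPM in the UT libraries. It was the highest IFIT gene in all 3 groups, and the 3 groups did not overlap. LPS exceeded UT by 3.03 log2 (SE 0.22, limma adjusted p = 8.67e-08), and LPS + BMS was below LPS (log2 difference -1.27, SE 0.22, limma adjusted p = 0.0094). Without LPS + BMS replicate 3 the difference was -1.13 and its limma adjusted p was 0.0712.

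*Ifit3*, whose human counterpart binds and stabilises IFIT1, had 27.05, 30.5 and 19.5 CPM in the LPS + BMS libraries, 57.8, 62.98 and 47.6 CPM in the LPS libraries and 18.9, 17.5 and 13.5 CPM in the UT libraries. LPS + BMS libraries sat nearer to UT than to LPS, and their lowest library was only just above the highest UT library. The difference between LPS and UT was 1.76 log2 (SE 0.20, limma adjusted p = 8.76e-06). That between LPS + BMS and LPS was -1.14 log2 (SE 0.20, limma adjusted p = 0.00996), and -0.96 without LPS + BMS replicate 3 (limma adjusted p = 0.0712). LPS + BMS exceeded UT by 0.62 log2 (limma adjusted p = 0.0217), a call that ended without LPS + BMS replicate 1 (adjusted p = 0.0749), LPS + BMS replicate 2 (0.104) or UT replicate 3 (0.0847).

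*Oas1a*, an active oligoadenylate synthetase, had 13.6, 17.4 and 15.6 CPM in the LPS + BMS libraries, 26.1, 28.2 and 22.8 CPM in the LPS libraries and 6.98, 10.9 and 9.56 CPM in the UT libraries. The 3 groups were separate, with UT replicate 1 the lowest library. LPS exceeded UT by 1.51 log2 (SE 0.21, limma adjusted p = 4.92e-05), LPS + BMS exceeded UT by 0.78 (limma adjusted p = 0.00751), and the inhibitor difference was -0.73 (95% interval -1.18 to -0.28, limma adjusted p = 0.0977).

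*Oas2*, an interferon-induced synthetase with a duplicated OAS unit, had 41.3, 48.9 and 35.9 CPM in the LPS + BMS libraries, 73.9, 55.8 and 58.9 CPM in the LPS libraries and 23.5, 28.7 and 42.5 CPM in the UT libraries. It started high and moved little, and UT replicate 3 stood within the LPS + BMS range. Between LPS and UT the difference was 1.03 log2 (SE 0.21, limma adjusted p = 0.00119). Neither the inhibitor difference of -0.58 (95% interval -1.03 to -0.13, limma adjusted p = 0.206) nor the 0.45 by which LPS + BMS stood above UT (limma adjusted p = 0.0946) passed, and the second did without UT replicate 3 (adjusted p = 0.00992).

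*Oas3*, the synthetase that binds long double-stranded RNA, had 6.97, 10.7 and 5.06 CPM in the LPS + BMS libraries, 16.2, 11.6 and 10.7 CPM in the LPS libraries and 9.67, 7.18 and 3.54 CPM in the UT libraries. LPS + BMS and UT overlapped over most of their ranges. LPS was above UT by 1.01 log2 (SE 0.37, limma adjusted p = 0.0381), a call that did not survive leaving out LPS + BMS replicate 1, any LPS library, UT replicate 2 or UT replicate 3 (adjusted p of 0.0511 to 0.162). The inhibitor difference was -0.81 (95% interval -1.61 to -0.01, limma adjusted p = 0.329), and LPS + BMS differed from UT by 0.20 (95% interval -0.59 to 1.00, limma adjusted p = 0.676).

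By their LPS difference, both OAS-like genes stood above *Oas1a*, *Oas2* and *Oas3*. *Oasl1*, a catalytically inactive family member known in mice to repress translation of *Irf7*, had 72.7, 111 and 56.98 CPM in the LPS + BMS libraries, 159, 183 and 141 CPM in the LPS libraries and 3.80, 4.94 and 5.49 CPM in the UT libraries. It was the lowest effector in UT and among the 4 highest in the other groups, with no overlap between any 2 groups. Relative to UT, the LPS libraries were 5.10 higher on the log2 scale (SE 0.22, limma adjusted p = 7.1e-10). LPS + BMS was below LPS (log2 difference -1.05, SE 0.22, limma adjusted p = 0.0271). That call ended without LPS + BMS replicate 1 (adjusted p = 0.130), LPS + BMS replicate 3 (0.146), LPS replicate 2 (0.0945) or LPS replicate 3 (0.0578).

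*Oasl2*, an OAS-like protein with ubiquitin-like repeats, had 48.7, 62.6 and 50.8 CPM in the LPS + BMS libraries, 93.1, 122 and 98.3 CPM in the LPS libraries and 20.3, 25.04 and 18.9 CPM in the UT libraries. Libraries within each group were close together and the groups were separate. Relative to UT, LPS was higher by 2.28 log2 (SE 0.16, limma adjusted p = 7.6e-08). LPS + BMS differed from LPS by -0.95 (SE 0.16, limma adjusted p = 0.0094), with an adjusted p of 0.0621 without LPS + BMS replicate 1 and 0.0712 without LPS + BMS replicate 3.

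*Isg15*, the ubiquitin-like modifier, had 306, 321 and 227 CPM in the LPS + BMS libraries, 266, 438 and 409 CPM in the LPS libraries and 12.01, 21.6 and 11.4 CPM in the UT libraries. The stimulated groups overlapped, as LPS + BMS replicates 1 and 2 were above LPS replicate 1, the shallowest library, and UT was far below both. LPS was higher than UT by 4.66 log2 (SE 0.24, limma adjusted p = 3.88e-09) and LPS + BMS exceeded UT by 4.30 (limma adjusted p = 8.64e-09). The inhibitor difference was -0.36 (95% interval -0.89 to 0.16, limma adjusted p = 0.522), and leaving out single libraries moved it between -0.59 (without LPS replicate 1) and -0.21 (without LPS + BMS replicate 3), with no call.

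*Rsad2* (viperin) was the most abundant effector in every group by its mean, with 576, 639 and 408 CPM in the LPS + BMS libraries, 821, 1212 and 937 CPM in the LPS libraries and 71.3, 40.4 and 24.7 CPM in the UT libraries. Its LPS libraries lay wholly above the LPS + BMS libraries, and the UT libraries were spread more widely than either on the log2 scale. The difference between LPS and UT was 4.56 log2 (SE 0.30, limma adjusted p = 3.14e-08). LPS + BMS differed from LPS by -0.88 (95% interval -1.52 to -0.24, limma adjusted p = 0.173).

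**Figure D3:**
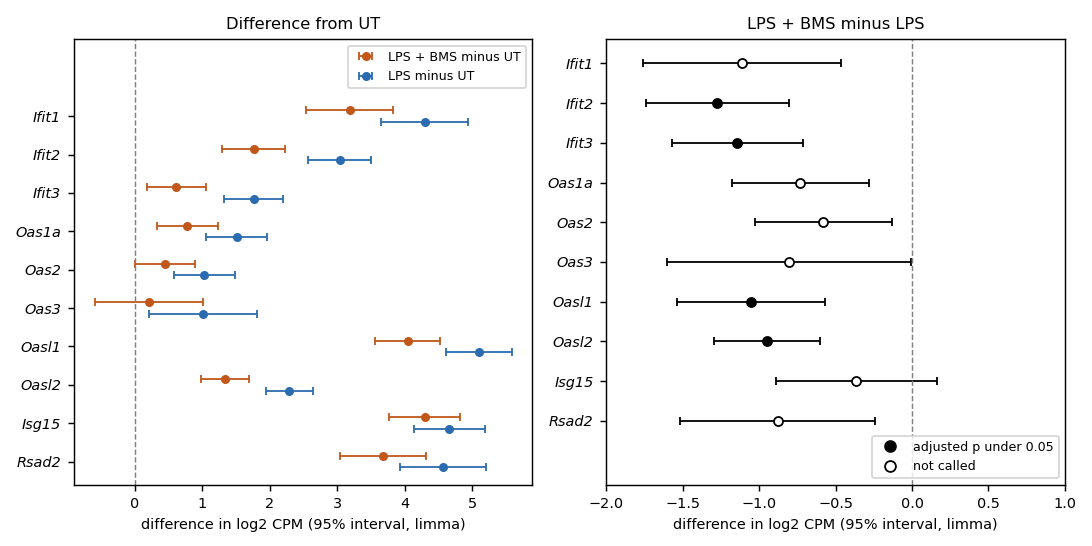
Log2 differences of the 10 effectors with 95% intervals from limma: LPS + BMS and LPS against UT on the left, LPS + BMS against LPS on the right, where filled points passed an adjusted p of 0.05. All 10 points on the right lie below 0, and the *Isg15* interval reaches from -0.89 to 0.16.

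**Figure D4:**
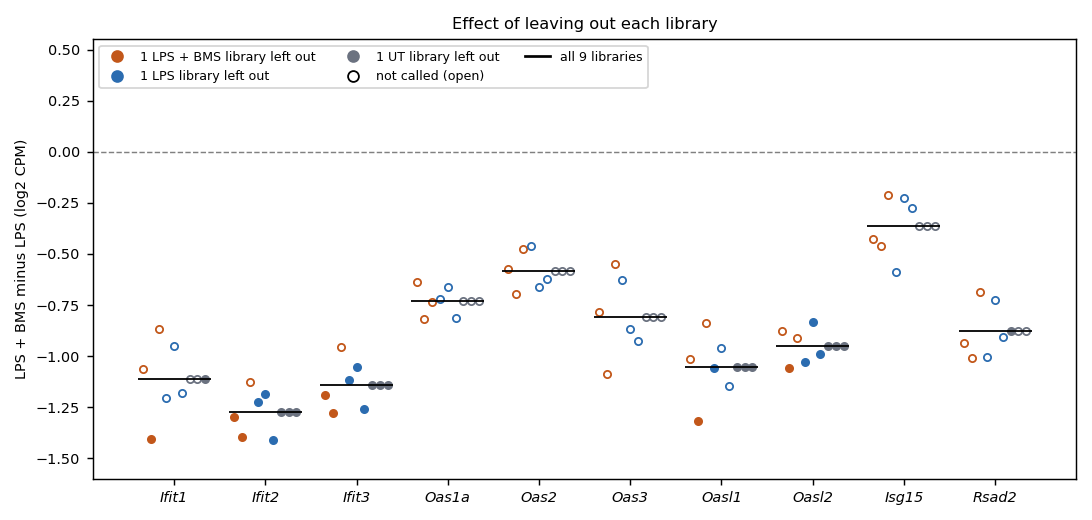
Log2 difference between LPS + BMS and LPS for each effector when each of the 9 libraries is left out in turn, coloured by the group of the library left out, with the value from all 9 libraries as a line and open points not called. Every point lies below 0, and the points without LPS + BMS replicate 3 are all open. Leaving out a UT library can change the adjusted p but not the difference.

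By mean log2 CPM, *Rsad2* was highest in LPS + BMS (9.05 ± 0.34, SD, n = 3), followed by *Isg15* (8.14 ± 0.27), *Ifit2* (6.97 ± 0.27), *Oasl1* (6.27 ± 0.48), *Oasl2* (5.75 ± 0.19), *Ifit1* (5.48 ± 0.55), *Oas2* (5.38 ± 0.22), *Ifit3* (4.66 ± 0.33), *Oas1a* (3.95 ± 0.18) and *Oas3* (2.85 ± 0.54). The LPS order was the same, with *Rsad2* at 9.93 ± 0.29 and *Oas3* at 3.66 ± 0.32 (SD, n = 3). In UT, *Rsad2* (5.37 ± 0.76) and *Ifit2* (5.21 ± 0.49) were followed by *Oas2* (4.94 ± 0.43), *Oasl2* (4.41 ± 0.21), *Ifit3* (4.04 ± 0.26), *Isg15* (3.84 ± 0.52), *Oas1a* (3.17 ± 0.33), *Oas3* (2.65 ± 0.74), *Ifit1* (2.30 ± 0.58) and *Oasl1* (2.23 ± 0.27). Neighbours whose library ranges overlapped, and which are therefore not ordered beyond their spread, ran from *Ifit2* through *Oasl1*, *Oasl2* and *Ifit1* to *Oas2* in LPS + BMS. In LPS they were *Isg15* with *Ifit2*, *Oasl2* with *Ifit1*, and *Oas2* with *Ifit3*. In UT all neighbours overlapped except *Isg15* and *Oas1a*. The places of *Oas1a* and *Ifit3* also depend on how reads of their shared 3′ sequence were counted, which was not tested.

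A difference between effectors of the same library does not change with a scaling factor of that library, and 6 pairs were followed in 2 comparisons. Quantile normalisation is not a single factor per library and can change such a difference, and its part was not tested. *Oasl1* stood 0.63 ± 0.13 log2 above *Oasl2* in LPS libraries and at -2.18 ± 0.35 relative to it in UT libraries, a change of 2.81 (SD, n = 3, exact two-sided permutation p = 0.1). *Ifit1* minus *Ifit2* was -1.65 ± 0.25 in LPS and -2.91 ± 0.19 in UT, and *Ifit3* minus *Ifit2* was -2.44 ± 0.04 in LPS and -1.17 ± 0.26 in UT (exact permutation p = 0.1 for each). Relative to *Ifit2*, *Ifit1* was thus higher and *Ifit3* lower in LPS than in UT in these libraries. *Isg15* minus *Rsad2* was -0.92 ± 0.07 in LPS + BMS and -1.43 ± 0.22 in LPS, with no overlap, a change of 0.51 (exact permutation p = 0.1). *Ifit3* minus *Ifit2* was -2.31 ± 0.07 in LPS + BMS and -2.44 ± 0.04 in LPS, also without overlap (change 0.13, exact permutation p = 0.1). The groups overlapped in all other pair comparisons. For LPS against UT, *Oas1a* minus *Oas2* changed by 0.48, *Oas3* minus *Oas2* by -0.02 and *Isg15* minus *Rsad2* by 0.10. For LPS + BMS against LPS, *Ifit1* minus *Ifit2* changed by 0.16 and *Oas1a* minus *Oas2* by -0.15. In that comparison *Oas3* minus *Oas2* changed by -0.23 and *Oasl1* minus *Oasl2* by -0.11. A p of 0.1 is the smallest that 3 libraries against 3 allow, and after adjustment over the 12 comparisons it is 0.24, so none passes.

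The libraries of a group tended to order the effectors alike. In LPS + BMS, replicate 2 was the highest of the 3 for 10 of 10 effectors, as it was for 33.4% of all tested genes, and replicate 3 was the lowest for 8 of 10 (31.9% of all tested genes). LPS replicate 2 was highest for 8 of 10 (31.6%) and UT replicate 3 lowest for 7 of 10 (35.5%). The 10 genes therefore share library-level variation, and their tests are not independent of one another.

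Of 10 further IFIT and OAS genes looked for, 4 were listed. The shares of all tested genes to set beside the list counts that follow are 21.5% called higher and 25.4% called lower for LPS against UT, and 0.959% and 1.16% for LPS + BMS against LPS. *Ifit3b*, the close copy of *Ifit3*, *Oas1b* and *Oas1g* were called higher in LPS than in UT, by 1.64, 1.94 and 1.24 log2 (limma adjusted p of 0.00029, 0.000562 and 1.37e-05). In LPS + BMS against LPS, *Ifit3b* (-1.29, limma adjusted p = 0.0293) and *Oas1g* (-0.85, limma adjusted p = 0.00996) fell, 2 of 4, and *Oas1b* (-1.13) and *Oas1c* (-0.81) did not pass. The *Ifit3b* call ended when any LPS + BMS library, LPS replicate 2 or LPS replicate 3 was left out, and the *Oas1g* call without LPS + BMS replicate 1 or 3. *Oas1c* was called in no comparison with LPS and was lower in LPS + BMS than in UT (-1.28, limma adjusted p = 0.00272). *Ifit3b* and *Oas1g* share 3′ sequence with *Ifit3* and *Oas1a*, so their values are not separate evidence. *Cmpk2*, the nucleotide kinase gene beside *Rsad2*, had 72.03, 83.9 and 54.8 CPM in the LPS + BMS libraries, 122, 155 and 127 CPM in the LPS libraries and 11.5, 8.90 and 7.07 CPM in the UT libraries. Its differences were 3.90 log2 for LPS against UT (limma adjusted p = 3.22e-09) and -0.95 for LPS + BMS against LPS (limma adjusted p = 0.0257), and the second call was lost without LPS + BMS replicate 1 or 3 or LPS replicate 2 or 3.

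In the ISG15 conjugation list, *Ube2l6* (the conjugating enzyme), *Herc6* (a ligase in mice) and *Usp18* (the protease that removes ISG15 and also damps IFNAR) rose with LPS, 3 of 4, and *Uba7* (the activating enzyme) differed by 0.14 (limma adjusted p = 0.761). *Usp18* had 28.7, 35.7 and 25.4 CPM in the LPS + BMS libraries, 65.04, 70.4 and 61.8 CPM in the LPS libraries and 4.57, 5.71 and 3.88 CPM in the UT libraries. It was separate in all 3 groups, 3.82 log2 higher in LPS than in UT (limma adjusted p = 2.36e-09) and -1.15 in LPS + BMS against LPS (limma adjusted p = 0.00843). *Herc6* was -0.88 in LPS + BMS against LPS (limma adjusted p = 0.019), and so 2 of 4 genes of the list fell with the inhibitor. Both calls were lost without LPS + BMS replicate 1 or 3, and the *Herc6* call also without LPS replicate 3. *Ube2l6* (-0.80) and *Uba7* (-0.77) did not pass, although *Ube2l6* did without LPS replicate 1 (limma adjusted p = 0.0496).

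*Pde12*, whose product degrades the oligoadenylates that OAS enzymes make, was 0.81 log2 higher in LPS than in UT (limma adjusted p = 0.0179), and the call ended without LPS replicate 2 or 3 or UT replicate 3. It differed between LPS + BMS and LPS by -0.11 and was not called. Its LPS and UT libraries overlapped, with LPS replicate 1 (20.98 CPM) below UT replicate 1 (22.98 CPM).

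Upstream of the effectors, the interferon ligands were not analysed here, *Ifnb1* included, since 4 of 13 ligand and receptor genes were listed and all 4 were receptor chains. *Ifnar1* and *Ifnar2* were higher in LPS than in UT by 0.47 and 0.48 log2 (limma adjusted p of 0.0262 and 0.00892, with the *Ifnar1* call lost without LPS replicate 1 or UT replicate 1 or 2). They differed between LPS + BMS and LPS by -0.04 and 0.36 (limma adjusted p of 0.924 and 0.223). LPS and UT libraries overlapped for *Ifnar1*, with UT replicate 3 (146.5 CPM) above LPS replicate 2 (146.0 CPM). Of the 4 receptor genes 3 rose and 1 fell with LPS, and 0 of 4 passed in either direction with the inhibitor (limma). Of 8 receptor signalling genes, 5 rose and 2 fell with LPS, beside 21.5% and 25.4% of all tested genes. *Stat2* had 37.9, 38.9 and 31.7 CPM in the LPS + BMS libraries, 64.1, 74.1 and 59.5 CPM in the LPS libraries and 24.3, 34.2 and 31.4 CPM in the UT libraries, and fell with the inhibitor (log2 difference -0.86, limma adjusted p = 0.0148), a call lost without LPS + BMS replicate 1 or 3 or LPS replicate 2. *Irf9* (-0.53, limma adjusted p = 0.054) and *Irf1* (-0.93, limma adjusted p = 0.0545) did not pass, nor did *Jak1* (0.11) and *Tyk2* (-0.42). Under other settings, *Irf1* did pass without LPS replicate 1 (limma adjusted p = 0.00868), without UT replicate 1 (0.04005), with library weights (0.00131) and with ribosomal protein centring (0.0178). *Irf9* passed without UT replicate 1 or 3 (0.039 and 0.0471), with library weights (0.0168), at a minimum of 10 CPM (0.0454), with median centring (0.0492) and in a fit of 2 groups (0.0499), and *Tyk2* with library weights (0.0218). *Irf8*, a macrophage lineage factor named here after its values were seen, was the single gene of the list that rose with the inhibitor (1.10 log2, limma adjusted p = 0.000482), and it had fallen with LPS (-2.05 log2, limma adjusted p = 6.22e-09).

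**Figure D5:**
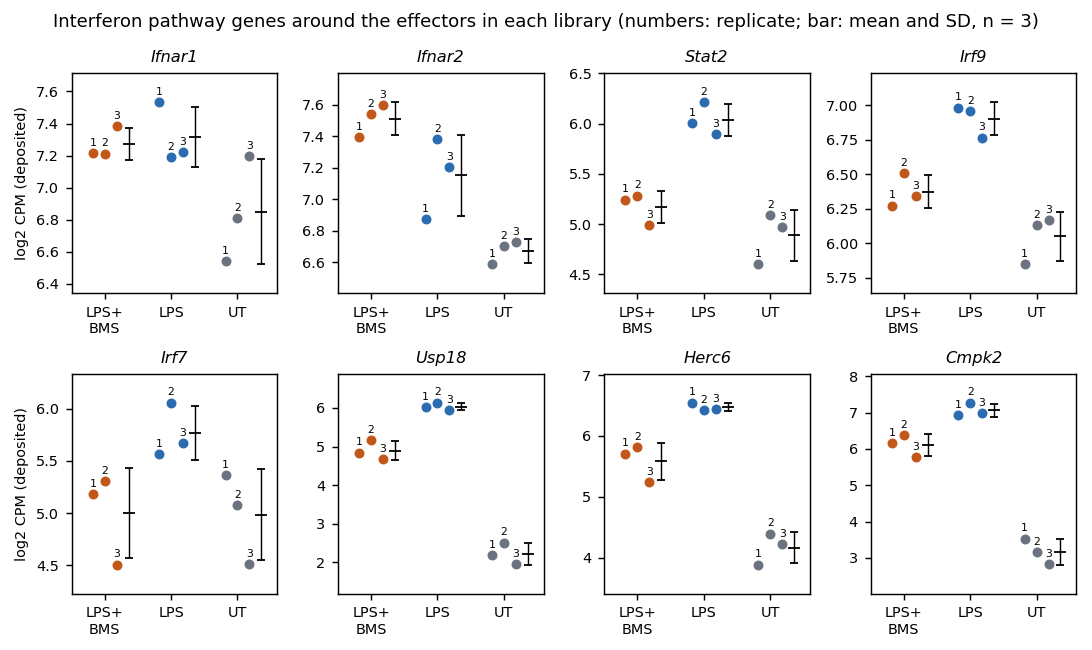
Deposited log2 CPM of 8 genes that act beside or upstream of the effectors, by library, with replicate numbers and the mean and SD of 3 libraries as a bar. *Usp18*, *Herc6*, *Cmpk2*, *Stat2*, *Irf9* and *Irf7* show LPS + BMS below LPS with no overlap, as did 11.2% of all tested genes. Of these, *Irf9* and *Irf7* were not called.

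Of 12 genes of the TLR4, TRIF and IRF3 arm, 8 rose and 2 fell with LPS, beside 21.5% of all tested genes called higher and 25.4% called lower. *Tlr4* itself was lower in LPS than in UT (log2 difference -1.47, limma adjusted p = 1.86e-05), *Ticam1* (TRIF) was 1.05 higher (limma adjusted p = 0.000155), *Irf7* was 0.78 higher (limma adjusted p = 0.0187, lost without LPS replicate 2 or UT replicate 3), and *Irf3* differed by 0.11 (limma adjusted p = 0.672). With the inhibitor, 1 of 12 fell and 0 of 12 rose: *Ticam2*, which encodes the adaptor TRAM that links TLR4 to TRIF and was named here after its values were seen, differed by -1.32 (limma adjusted p = 0.0068). *Irf7* (-0.77, limma adjusted p = 0.149), *Tlr4* (0.67), *Ticam1* (-0.07) and *Irf3* (-0.29) did not pass, although with library weights *Irf7* (limma adjusted p = 0.0268) and *Tlr4* (0.00488) did. Among 8 negative regulators of interferon signalling 5 rose with LPS, and with the inhibitor *Usp18* alone was called lower. *Acly*, the gene of the enzyme that BMS303141 inhibits, differed between LPS + BMS and LPS by -0.09 (95% interval -0.38 to 0.21, limma adjusted p = 0.802).

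Over the 9 libraries, *Ifit2* (Pearson r = 0.993), *Oasl2* (0.990) and *Ifit1* (0.985) followed the mean standardised profile of the 10 effectors most closely, and *Oas2* (0.834) and *Oas3* (0.719) least. Each effector is itself part of that profile, which raises its r, so these values are not comparable with those of other genes. The genes outside the 10 with the highest r were *Tmem159* (0.994), *Cpeb4* (0.993), *Slfn8* (0.993), *Ppp1r15a* (0.991) and *Usp18* (0.990). All 9 points come from 3 groups, so r mainly reflects the order of the group means. Of the tested genes, effectors included, 198 (1.62%) had an r over 0.95. *Tmem159*, whose product takes part in lipid droplet assembly, averaged 3.72 ± 0.20 log2 CPM in LPS + BMS, 4.18 ± 0.06 in LPS and 3.02 ± 0.07 in UT (SD, n = 3). *Slfn8*, of the schlafen family, averaged 6.81 ± 0.14 in LPS + BMS, 7.73 ± 0.11 in LPS and 5.65 ± 0.15 in UT.

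Centring on 62 ribosomal protein genes, chosen after seeing the data, moved the balance of calls over all genes. For LPS against UT the calls were 3382 higher and 1971 lower (63.2% higher), against 2628 and 3102 (45.9%) with the deposited scale, and the median of all genes moved to 0.19. For LPS + BMS against UT they were 3243 higher and 2179 lower (59.8%), against 2627 and 3120 (45.7%), with a median of 0.13. For LPS + BMS against LPS they were 70 higher and 124 lower (36.1%), against 117 and 141 (45.3%). The effectors' medians were then 2.90, 1.73 and -0.97 in these 3 comparisons, and all 10 kept their direction in each.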

How the data were processed

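RNA was measured in 9 libraries with a 3′-end kit (100 ng RNA and 16 PCR cycles, per the labels' protocols). The authors deposited a table of 12204 genes whose values are log2 CPM, quantile-normalised, handled here as a score since decimal commas hide the log2 range from the automatic unit check. STAR 2.5.2b, featureCounts 1.5.1, limma and edgeR are named, without roles, in the submitters' processing notes, with GRCm38/mm10. Ensembl identifiers were matched to GENCODE M21 symbols (12181 matched, 23 did not). Powers of 2 of the values sum to 987472 to 987498 CPM, and read numbers were estimated from the smallest steps between low values.

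Genes that reached log2 CPM 0 in 3 or more libraries (12196) were fitted with limma 3.58.1 in R 4.3.3 (empirical Bayes with mean trend, all 9 libraries, 3 groups), with Benjamini-Hochberg adjustment over all tested genes. The script was tested on simulated data. Quantile normalisation gives every library nearly the same distribution, so a shift of most genes in 1 direction would be removed. The members and gene lists were chosen with earlier results of these data known, and so were the named genes: all 10 members, fixed pathway genes and the 5 genes most alike in profile. Some of the pathway genes are not reported here. Alternatives were the replicate block, other filters, median and quantile scaling, no mean trend, library weights, fits of 2 groups, a 2-fold minimum, leaving out each library and, added after seeing the data, ribosomal protein centring. RefSeq promoters (GRCm38.p6) were matched by symbol, 9 of 10.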

Additional observations from a re-analysis of the deposited data

How the results depend on the processing

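The differences of the 10 effectors kept their sign under all 18 alternative settings for LPS against UT (180 of 180 positive). They also did for LPS + BMS against LPS (180 of 180 negative), and in 178 of 180 for LPS + BMS against UT. Many of these settings cannot change a difference: the replicate block, the filters, no mean trend and fits of 2 groups. Leaving out a library of the group not compared cannot either. The signs under those settings were fixed in advance and add no support. Calls were less stable, and precision is limited by 3 libraries per group and, for *Oas3*, by few reads. For LPS + BMS against LPS, 258 genes and 4 effectors were called. No mean trend gave 99 genes and 0 effectors by limma (8 effectors at an unadjusted p under 0.05), library weights gave 814 genes and 7 effectors, and a 2-fold minimum 119 genes. Leaving out single libraries gave 62 to 318 genes and 0 to 5 effectors, with the lowest values without LPS + BMS replicate 3 (6 effectors at an unadjusted p under 0.05). A 2-fold minimum left 3309 of 5730 genes for LPS against UT and 3320 of 5747 for LPS + BMS against UT, and leaving out single libraries gave 4846 to 6040 and 4795 to 6411 genes, with 9 to 10 and 7 to 8 effectors.

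Same-numbered libraries of different groups had deviations correlated at -0.297 to 0.165, so the numbers were not taken to pair the samples. With the replicate block, 208 genes and 5 effectors were called for LPS + BMS against LPS, the added effector being *Ifit1* (adjusted p = 0.0157). Other calls gained or lost are visible only under some settings: *Ifit1* also passed with library weights (adjusted p = 0.0136), in a fit of 2 groups (0.0431), with ribosomal protein centring (0.0461) and without UT replicate 3 (0.036). Without a mean trend the LPS + BMS against LPS calls of *Stat2*, *Herc6*, *Cmpk2*, *Ifit3b* and *Oas1g* also ended (adjusted p of 0.0554 to 0.111), as did the LPS against UT calls of *Oas3* (0.0727), *Ifnar1* (0.0789) and *Irf7* (0.0556). *Rsad2* passed with weights (0.0155), in a fit of 2 groups (0.0324) and without UT replicate 1 (0.049), and *Oas1a* with weights (0.0411). Weights also added *Oas1b* (0.0238), *Ube2l6* (0.0168), *Irf9* (0.0168), *Irf1* (0.00131), *Irf7* (0.0268), *Tlr4* (0.00488) and *Tyk2* (0.0218), all for LPS + BMS against LPS.

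Signs turned only for differences that had not passed. With library weights, *Uba7* was at -0.14 (LPS against UT), *Ifnar1* at 0.031 and *Ticam1* at 0.076 (LPS + BMS against LPS) and *Irf7* at -0.056 (LPS + BMS against UT), and with ribosomal protein centring *Irf3* was at 0.00067 (LPS + BMS against UT). For LPS against UT, leaving out single libraries, *Irf3* ran from -0.036 to 0.22, *Uba7* ran from -0.081 to 0.30, *Oas3* minus *Oas2* ran from -0.66 to 0.49 and *Isg15* minus *Rsad2* ran from -0.42 to 0.42. For LPS + BMS against LPS, leaving out single libraries, *Ifnar1* ran from -0.11 to 0.064, *Ticam1* ran from -0.17 to 0.059, *Pde12* ran from -0.44 to 0.10, *Ifit1* minus *Ifit2* ran from -0.013 to 0.26, *Oas1a* minus *Oas2* ran from -0.26 to 0.00080 and *Oasl1* minus *Oasl2* ran from -0.26 to 0.073. For LPS + BMS against UT, leaving out single libraries, *Oas3* ran from -0.21 to 0.52, *Irf7* ran from -0.22 to 0.26 and *Ifit3b* ran from -0.0043 to 0.65. The cause was not tested.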
